A study of Bos taurus with 8 samples.

Results

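The genes described here are 6 markers by which macrophages are recognised: CD163, CD14, CD68, CSF1R, MRC1 and AIF1. They were taken as the array probes whose annotated symbol equals 1 of these names. A probe was found for 5 of the 6, and all 5 passed the filter on dim probes. MRC1, the macrophage mannose receptor, was not analysed here. The 5 measured genes are 5 of 14085 named genes kept, and of 32472 features (named genes and unnamed probes) tested. The genes were chosen by their ratios between the study's groups, which were known beforehand, so those ratios are given as a description and without a test.

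RNA of bovine granulosa cells, which surround the oocyte and make oestradiol, was compared between cows that differed in energy balance after calving. Group BHBH held Holstein cows in severe negative energy balance with high blood beta-hydroxybutyrate, a ketone body. Group BHBL held Holstein cows in mild negative energy balance with low beta-hydroxybutyrate. In both groups cells were aspirated at day 60 postpartum from dominant follicles over 9 mm, 42 h after 1 injection of PG, and no group of cows outside negative energy balance was used here. Each group had 12 cows in 4 pools of 3, so a value stands for a pool and the cows in it cannot be separated. Each pool's amplified RNA was hybridised on 2 two-colour arrays with the dyes swapped, 8 arrays in all. An array set 1 BHBH pool against 1 BHBL pool, and such a couple is called a pool pair here, numbered 1 to 4. A log2 ratio of 1 is a 2-fold higher signal in BHBH. Aspirated follicular cells are a mixture, and in such bulk RNA fewer cells of a type and less RNA per cell cannot be told apart.

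Macrophages develop from circulating monocytes or from precursors seeded in the tissue before birth, and they engulf dead cells and microbes. Their growth and survival depend on the receptor encoded by CSF1R. In the ovary they are found mainly in the theca and stroma, in regressing follicles and in the corpus luteum, and some reach the follicular antrum. CD163 takes up complexes of haemoglobin and haptoglobin, CD14 presents bacterial lipopolysaccharide to Toll-like receptor 4, CD68 is a glycoprotein of the lysosome and late endosome, and AIF1 is a calcium-binding protein that bundles actin.

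Across the 4 pool pairs the 5 genes shared 1 arrangement. Their signal was higher in BHBH in pairs 1, 2 and 3 and lower in BHBH in pair 4, by 4.40-fold for CSF1R up to 26.4-fold for CD163. The sign arrangement held for 5 of 5 genes, against 7.14% of all features tested. Averaged over pairs, the opposing values left mean log2 ratios between -0.45 and 0.55, with SDs between pairs of 1.79 to 3.22. The mean was higher in BHBH for 4 of 5 genes, against 48.2% of all features. The mean of CD163 was close to 0 and became -0.0028 with median centring in place of loess and -0.013 on slide 288 alone. The pools of BHBH and BHBL overlapped for all 5, and in 1.36% of all features they lay apart with BHBH higher and in 1.56% with BHBH lower. These shares describe the contrast by which the genes were chosen and are not read further.

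CD163, the haemoglobin scavenger receptor, had log2 levels of 11.38, 14.29, 13.69 and 9.56 in BHBH pools 1 to 4, against 10.53, 11.98, 12.02 and 14.28 in BHBL pools 1 to 4. BHBH pool 4 was the lowest of the 8 pools and BHBL pool 1 the next, while BHBH pool 2 and BHBL pool 4 were the highest and lay within technical error of each other. The groups overlapped, with means of 12.23 ± 2.18 in BHBH and 12.20 ± 1.55 in BHBL (SD, n = 4 pools each). The pair ratios were 0.85, 2.31, 1.67 and -4.72, with a mean of 0.03 and an SD of 3.22. From the lowest to the highest pool CD163 signal spanned 26.4-fold, the widest span among the 5 genes.

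CD14, the lipopolysaccharide co-receptor of monocytes and macrophages, had log2 levels of 11.30, 11.54, 10.94 and 7.58 in the BHBH pools, against 8.36, 10.08, 9.69 and 11.04 in the BHBL pools. BHBH pool 4 again lay below the other 7 pools, 3.36 log2 units under the next BHBH pool. There its raw Cy5 intensity was 194 over a local background of 40, a dim signal. Its pair 4 ratio was -3.21 without background correction and -3.01 in the deposited ratios. The groups overlapped, with 10.34 ± 1.86 in BHBH and 9.79 ± 1.11 in BHBL. Its pair ratios were 2.95, 1.46, 1.25 and -3.46, a mean of 0.55 with an SD of 2.78. The pair 1 ratio was the highest among the 5 genes and came with a low BHBL pool 1.

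CSF1R, the receptor for the macrophage growth factors CSF1 and IL34, had log2 levels of 8.91, 9.67, 9.95 and 7.13 in the BHBH pools, against 7.51, 8.32, 8.40 and 9.27 in the BHBL pools. The order of pools at the low end was the same, with BHBH pool 4 lowest and BHBL pool 1 next. The groups overlapped, with 8.91 ± 1.27 in BHBH and 8.38 ± 0.72 in BHBL. Its first 3 pair ratios, 1.39, 1.35 and 1.55, were the most even of the 5 genes, and pair 4 stood at -2.14. The mean was 0.54 with an SD of 1.79. In BHBH pool 4 its raw Cy5 intensity was 151 over a local background of 37, so its level there lay close to what the array can resolve.

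CD68, the lysosomal glycoprotein, had log2 levels of 12.94, 13.70, 13.51 and 10.22 in the BHBH pools, against 11.35, 12.40, 12.29 and 13.45 in the BHBL pools. The 3 other BHBH pools lay between 12.94 and 13.70, and BHBH pool 4 lay 1.13 below BHBL pool 1, the next in order. The groups overlapped, with 12.59 ± 1.61 in BHBH and 12.37 ± 0.86 in BHBL. Pair ratios were 1.59, 1.30, 1.22 and -3.23, with a mean of 0.22 and an SD of 2.30.

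AIF1, the actin-bundling protein, had log2 levels of 11.74, 12.13, 12.21 and 9.54 in the BHBH pools, against 10.49, 11.97, 11.88 and 13.05 in the BHBL pools. BHBL pool 4 was the highest of the 8 pools for this gene, and 5 pools in the middle of the order followed each other within 2 technical SDs. The groups overlapped, with 11.40 ± 1.26 in BHBH and 11.85 ± 1.05 in BHBL. The pair ratios were 1.25, 0.15, 0.33 and -3.52, a mean of -0.45 with an SD of 2.10, the only mean of the 5 that was lower in BHBH. In pairs 2 and 3 its 2 dye-swapped arrays differed in sign: on the arrays with BHBH in Cy5 the ratios were -0.17 and -0.03, and with BHBH in Cy3 they were 0.48 and 0.69. AIF1 was therefore above 0 on 4 of 8 arrays, and each of the other 4 genes on 6 of 8.

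**Figure D1:**
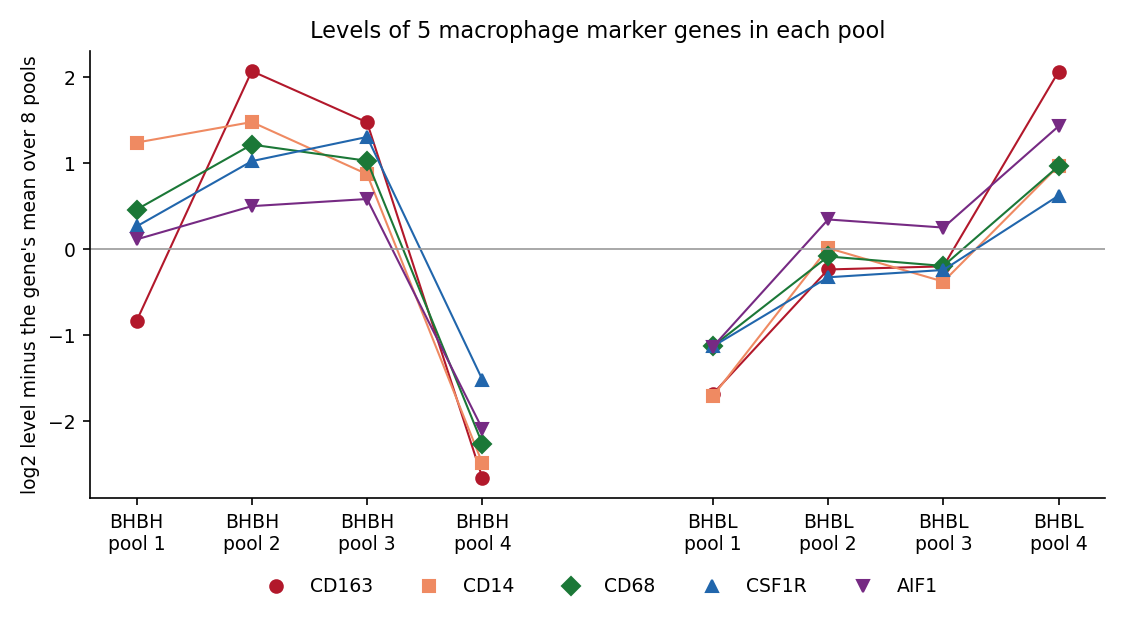
Log2 level of CD163, CD14, CD68, CSF1R and AIF1 in each of the 4 BHBH and 4 BHBL pools (horizontal axis), less the gene's own mean over the 8 pools (vertical axis, log2 units). Points are means of the 2 arrays of a pool, lines only join the points of 1 gene within a group and carry no order. All 5 genes are lowest in BHBH pool 4 and next lowest in BHBL pool 1, and BHBL pool 4 is the highest BHBL pool for each.

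Both sides of a pair contributed to its ratio. BHBH pool 4 was the lowest of all pools and BHBL pool 4 the highest BHBL pool for 5 of 5 genes, so the ratio of pair 4 combined a low and a high pool. In pair 1 the BHBL pool was the low one for the 5 genes. Being lowest in BHBH pool 4 and second lowest in BHBL pool 1 held for 5 of 5 genes, against 2.94% of all features, and being lowest in BHBH pool 4 alone held for 14.9% of all features. Averaged over the 5 genes after centring each on its mean, the log2 level was 0.25, 1.26, 1.05 and -2.20 in BHBH pools 1 to 4, against -1.36, -0.06, -0.15 and 1.21 in BHBL pools 1 to 4. Within each group the pools therefore differed from each other by more than the group means did.

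The difference between dye-swapped arrays was small beside this spread. For CD163, CD14, CD68 and CSF1R the 2 arrays of a pair differed by at most 0.32, 0.29, 0.29 and 0.28 log2 units, and for AIF1 by at most 0.72. The SDs between pairs lay between 1.79 and 3.22. Neighbours in the order of the 8 pools that lay within 2 technical SDs of each other numbered 2 of 7 for CD163, 1 of 7 for CD14, 3 of 7 for CD68, 1 of 7 for CSF1R and 4 of 7 for AIF1. The 5 genes were above background in all 16 channels, and none was saturated in any.

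**Figure D2:**
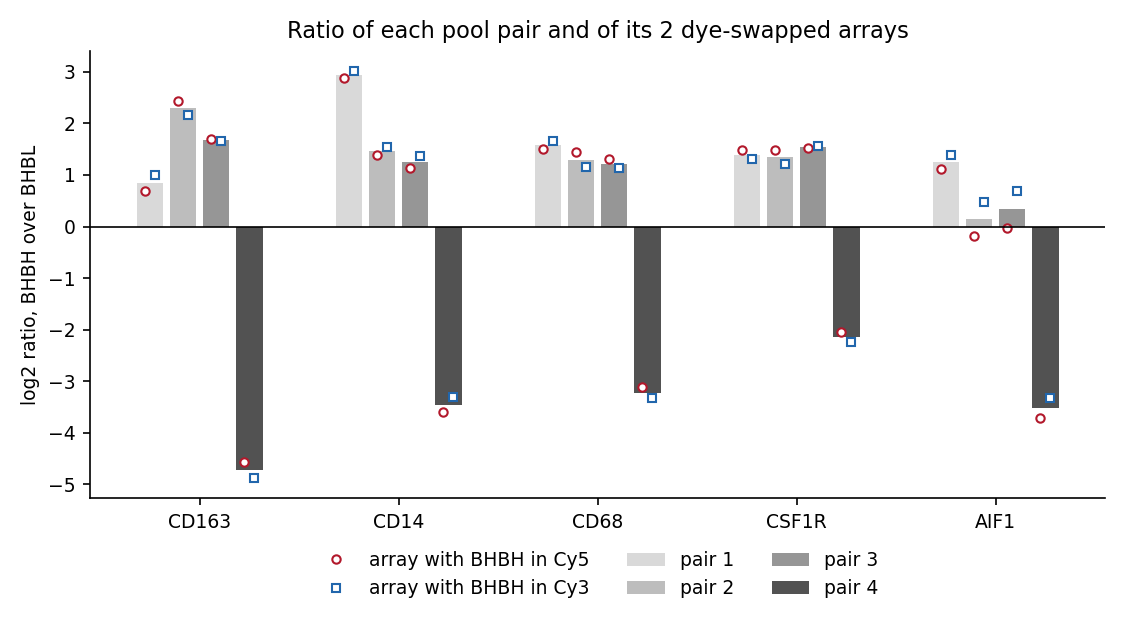
Log2 ratio of BHBH over BHBL (vertical axis) for the 5 macrophage marker genes (horizontal axis). Bars are the 4 pool pairs, and the circle and square on each bar are its array with BHBH in Cy5 and its array with BHBH in Cy3. The bars of pairs 1 to 3 are above 0 and the bar of pair 4 is below 0 for each gene, from -2.14 for CSF1R to -4.72 for CD163, and for AIF1 the arrays of pairs 2 and 3 fall on both sides of 0.

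The mean ratios rested on pair 4. Without it they were 1.61 ± 0.73 for CD163, 1.89 ± 0.92 for CD14, 1.37 ± 0.19 for CD68, 1.43 ± 0.10 for CSF1R and 0.58 ± 0.59 for AIF1 (SD, n = 3 pairs). Without pair 1 they were -0.25 for CD163, -0.25 for CD14, -0.23 for CD68, 0.25 for CSF1R and -1.01 for AIF1, so 3 of the 4 genes with a higher mean in BHBH then had a lower one. Without pair 2 the means were -0.73 for CD163 and -0.14 for CD68, and without pair 3 they were -0.52 and -0.11, so these too changed sign, while CD14 and CSF1R stayed above 0 in both cases. A threshold of 2-fold in each pair, higher in pairs 1 to 3 and lower in pair 4, was met by CD14, CD68 and CSF1R, 3 of the 5 genes, against 0.182% of all features. CD163 missed it in pair 1 with a ratio of 0.85, and AIF1 missed it in pairs 2 and 3.

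The 5 genes moved together over the pools without being identical. Pearson's r between their log2 levels over 8 pools ran from 0.84, for CD163 with CD14, to 0.97, for CD14 with CD68. These values describe 8 pools that share arrays in couples, and much of the spread comes from BHBH pool 4: over the other 7 pools r ran from 0.73 to 0.97. BHBH pool 1 parted the genes most. Relative to its own mean CD163 stood at -0.84 there and CD14 at 1.24, with CD68 at 0.46, CSF1R at 0.26 and AIF1 at 0.11.

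In the fit of all 32472 features over the 4 pool pairs, 0 features (0%) passed an adjusted p of 0.05 by limma, the lowest value being 0.408. At an unadjusted p under 0.05 it held 1664 features (5.12%). With all 8 arrays and the pool pair as a block, 120 of the 32472 features were called. That fit counts dye-swapped arrays of the same pools partly as separate replicates, so it is less strict than the fit over 4 pairs.

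The other genes known from macrophages and monocytes were examined as 1 list of 55, of which 46 were measured. None of the 46 passed the adjusted threshold in either direction, and none had an unadjusted p under 0.05. Their mean ratios were higher in BHBH for 25 and lower for 21, with a median of 0.04 beside -0.01 for all features. Pair by pair the list's medians were 1.03, 0.34, 0.44 and -1.67, the same order of signs as in the 5 markers. Higher in pairs 1 to 3 and lower in pair 4 were 23 of 46 genes, against 7.14% of all features. In pair 4, 33 of 46 were at least 2-fold lower, against 5.07% of all features. At least 4-fold lower in pair 4 were 17 of the 46, against 1.36% of all features. In BHBH pool 4 was the lowest level of 28 of the 46 genes, against 14.9% of all features. The list's median centred level was 0.25, 0.41, 0.43 and -0.97 in the BHBH pools, against -0.76, 0.06, -0.08 and 0.69 in the BHBL pools. Apart from FCGR1A, GPNMB, SIGLEC1, C1QC, C1QA, C1QB, TYROBP and SPI1, the genes of this list named in the next paragraphs were chosen after their values were seen.

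Receptors for antibody were among the genes closest to the 5 markers. FCGR1A, the high-affinity IgG receptor, had log2 levels of 11.03, 12.16, 12.27 and 8.18 in the BHBH pools, against 8.77, 10.20, 10.40 and 12.44 in the BHBL pools. Its pair ratios were 2.26, 1.97, 1.87 and -4.26, and its r with the mean profile of the 5 markers was 0.99. BHBH pool 4 was again the lowest and BHBL pool 1 the next. FCGR2, a low-affinity IgG receptor, had pair ratios of 1.74, 2.37, 2.36 and -3.79, and FCER1G, the signalling chain shared by several of these receptors, 1.06, 0.93, 0.57 and -1.53. FCGR3, another low-affinity receptor that natural killer cells and neutrophils can also carry, parted from them with 2.29, -0.82, 0.21 and -1.91.

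The scavenger and phagocytic receptors named here gave a similar picture, and others on the list are not given. VSIG4, a complement receptor of tissue macrophages, had pair ratios of 1.43, 1.94, 1.94 and -3.97. STAB1, a scavenger receptor of macrophages and of some endothelia, had 1.51, 1.69, 1.45 and -3.07. MSR1, the class A scavenger receptor, had 1.32, 0.86, 0.86 and -2.44 and was the gene most like CD68, with an r of 0.99. All 3 were thus on the side of BHBH in pairs 1 to 3 and on that of BHBL in pair 4. TREM2, a lipid-sensing receptor, had 1.70, 1.08, 1.196 and -1.83. TYROBP, the adaptor through which TREM2 signals, had log2 levels of 13.14, 12.84, 12.67 and 10.62 in the BHBH pools, against 11.06, 12.12, 12.38 and 13.14 in the BHBL pools. MERTK, a receptor for dying cells, had 0.69, 0.88, 1.04 and -1.08.

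SPI1 encodes PU.1, the transcription factor required for the myeloid lineage. Its log2 levels were 12.87, 13.46, 13.04 and 10.79 in the BHBH pools, against 10.70, 12.53, 11.89 and 13.28 in the BHBL pools. Here BHBL pool 1 was slightly lower than BHBH pool 4, unlike in the 5 markers. IRF8, a partner of PU.1 also used by lymphocytes, had pair ratios of 2.31, -1.43, 1.19 and -3.69, so pair 2 broke the arrangement. GPNMB, a membrane glycoprotein of lipid-laden macrophages, had log2 levels of 15.07, 15.02, 14.88 and 9.60 in the BHBH pools, against 12.55, 13.29, 12.73 and 14.27 in the BHBL pools. Its pair 4 ratio of -4.66 was the lowest of the 46 genes.

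Not every macrophage gene followed. The complement C1q chains, which tissue macrophages make, were low in BHBH pool 4 but changed direction within pairs 1 to 3. C1QA had pair ratios of 0.41, -0.12, 1.36 and -3.05, C1QB 0.10, -0.23, 0.39 and -3.01, and C1QC -0.18, -0.95, 0.44 and -2.24. SIGLEC1, the sialic acid receptor of resident macrophages in lymphoid tissue, was lower in BHBH in every pair, at -0.33, -1.02, -0.37 and -0.05, with an unadjusted p of 0.0555 and an adjusted p of 0.916 by limma. Lysozyme, LYZ, which epithelia and neutrophils also make, had 2.82, -2.83, -2.23 and -1.12. CX3CR1, the fractalkine receptor, had 0.42, -0.39, -0.16 and -0.75 and CD33 had 1.98, -1.67, -0.17 and 0.14. The r of the 46 genes with the mean profile of the markers ran from -0.23 for SIGLEC1 to 0.99 for FCGR1A, with a median of 0.82, while its median over all features was -0.03.

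**Figure D3:**
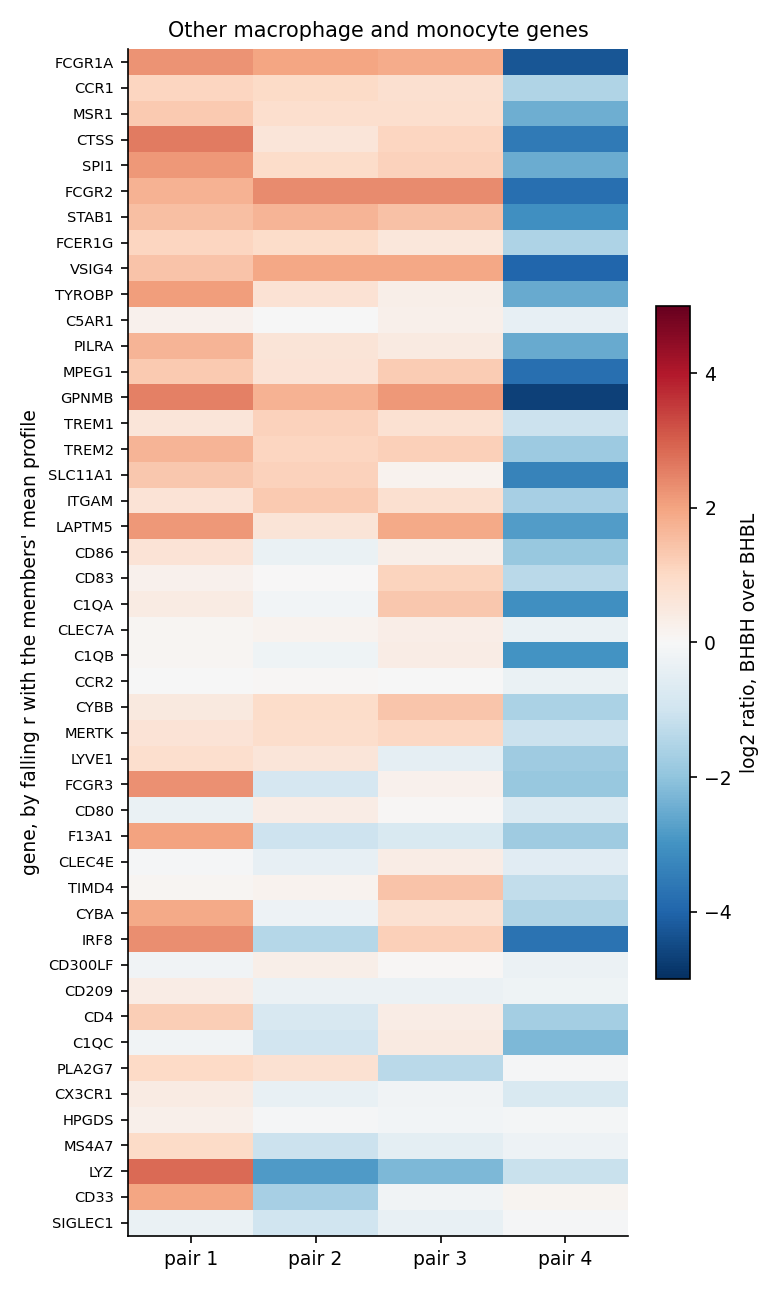
Log2 ratio of BHBH over BHBL (colour scale) for the 46 measured macrophage and monocyte genes other than the markers (rows) in the 4 pool pairs (columns). Rows are ordered by falling r with the mean pool profile of the 5 markers, from FCGR1A at 0.99 to SIGLEC1 at -0.23, and in the upper rows pairs 1 to 3 are mostly above 0 and pair 4 below it.

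Ligands and partners of each marker were measured beside it. For CSF1R, CSF1 did not pass the filter on dim probes. IL34, the other ligand, had pair ratios of 0.35, -0.66, 0.10 and -0.32. Of the 12 measured genes of the colony stimulating factor pathway, 0 passed the adjusted threshold, and the median r with the markers was 0.20. The sign arrangement of the markers held for 2 of the 12, against 7.14% of all features. Over the pairs the medians of this list were 0.22, -0.06, 0.09 and -0.32, against 1.39, 1.35, 1.55 and -2.14 for CSF1R itself. FLT3, a receptor of early myeloid and dendritic cells, had 0.49, 0.70, -0.23 and -1.18. GRB2, an adaptor that binds many receptors of this family, had -0.03, 0.12, 0.22 and -1.09, while its further probe had -0.36, -0.17, -0.15 and -0.11.

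Partners of CD14 in the lipopolysaccharide receptor followed it in part. LBP, the serum protein that hands lipopolysaccharide to CD14, had pair ratios of -0.39, -1.85, -0.25 and -0.36. LY96, the protein that binds lipopolysaccharide at the receptor, had 1.75, -0.52, 0.86 and -2.08, and TLR4, the receptor itself, had 0.45, -0.23, 0.15 and -1.19. TLR2, the receptor for bacterial lipoproteins that also uses CD14, had log2 levels of 12.02, 11.99, 12.16 and 8.53 in the BHBH pools, against 10.02, 11.15, 10.90 and 11.40 in the BHBL pools. TLR2 was low in the same pools as CD14, with an r of 0.93 with the markers. Of the 20 genes in this pathway list, all measured, 0 passed the adjusted threshold, 5 had the sign arrangement, and 7 were at least 2-fold lower in pair 4. Of all features, 7.14% had the sign arrangement and 5.07% were at least 2-fold lower in pair 4. IRAK1, a cytosolic kinase of the pathway, had 0.23, 0.12, 0.08 and 0.28.

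The haemoglobin route of CD163 did not share the arrangement as a whole. HBB, the beta chain of haemoglobin and a sign of blood in an aspirate, had pair ratios of 4.10, -4.98, -3.89 and 0.43, and its r with the markers was -0.10. HP, haptoglobin, had 1.80, -0.75, -0.15 and -1.81. HMOX1, the enzyme that opens the haem ring after uptake, had 0.78, 1.21, -0.77 and -1.997. Of the 14 measured genes of haemoglobin and iron handling, 1 had the sign arrangement, against 7.14% of all features. This count does not set the list apart from the array. The gene was FTH1, a ferritin subunit, with 0.72, 0.10, 0.19 and -1.56, named here after its values were seen. In pair 4, 4 of the 14 were at least 2-fold lower, against 5.07% of all features. None passed the adjusted threshold, and HMOX2 and NQO1 had unadjusted p-values of 0.0133 and 0.0225 by limma, both lower in BHBH in every pair.

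Of the 19 measured lysosomal genes, 8 had the sign arrangement of CD68 and the other markers, against 7.14% of all features. In pair 4, 10 of the 19 were at least 2-fold lower, against 5.07%. The lowest of the 8 pools was BHBH pool 4 for 12 of the 19, against 14.9% of all features, and the list's medians over the pairs were 1.13, 0.44, 0.32 and -1.14. CTSK, a collagen-degrading protease, had log2 levels of 13.36, 13.82, 13.78 and 10.45 in the BHBH pools, against 10.87, 12.17, 12.54 and 13.16 in the BHBL pools, with pair ratios of 2.49, 1.65, 1.23 and -2.71. LGMN, a lysosomal asparagine protease, had 1.63, 0.85, 1.07 and -3.74, with 4 of its 16 channels saturated, so its high levels are lower bounds and its ratios are not exact. The general lysosomal membrane protein LAMP2 had -0.64, -0.58, -0.54 and -0.09, an unadjusted p of 0.0127 and an adjusted p of 0.916 by limma. HEXA, a housekeeping lysosomal hydrolase, had 0.16, 0.08, 0.10 and 0.11.

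Among chemoattractants of monocytes, CCL2, the main ligand of the monocyte receptor CCR2, had the widest spread of pair ratios on its list. Its log2 levels were 11.56, 12.29, 11.72 and 7.65 in the BHBH pools, against 7.94, 8.86, 9.81 and 12.54 in the BHBL pools. BHBH pools 1 to 3 and BHBL pool 4 were high and the other 4 pools low, and the pair ratios were 3.61, 3.43, 1.92 and -4.89. Its r with the markers was 0.94. CCL24, an attractant of eosinophils, had 0.40, 0.28, 0.44 and -0.15. C3, whose fragments attract leukocytes, had 3.39, -3.77, -2.87 and -1.83 and C5 -0.52, -3.25, -0.84 and 0.51. Of the 11 measured genes on this list 4 had the sign arrangement, against 7.14% of all features, and 0 passed the adjusted threshold.

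Antigen presentation through MHC class II, a function macrophages share with dendritic cells and B lymphocytes, was examined next. Of 14 measured genes 12 had their lowest level in BHBH pool 4, against 14.9% of all features, and 11 were at least 2-fold lower in pair 4, against 5.07%. In pairs 1 to 3 the list was less even, with medians of 0.67, 0.08 and 0.40 and a median of -1.68 in pair 4. CTSS, the protease that trims the invariant chain, had 2.62, 0.62, 1.07 and -3.54 and an r of 0.97 with the markers. BOLA-DQB, a class II beta chain whose polymorphic copies a probe may not tell apart, had -1.56, 2.22, -2.16 and -2.64. None of the 14 passed the adjusted threshold.

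Markers of other cell types that an aspirate can hold were set beside the macrophage genes. In the pan-leukocyte list 8 of 13 measured genes had the sign arrangement, against 7.14% of all features. The list's medians over the pairs were 0.96, 0.12, 0.56 and -1.75. Its median centred level was 0.47, 0.29, 0.12 and -0.99 in the BHBH pools, against -0.50, 0.15, -0.45 and 0.81 in the BHBL pools. PTPRC, the common leukocyte antigen, had log2 levels of 12.20, 11.81, 10.19 and 9.36 in the BHBH pools, against 11.24, 12.80, 10.003 and 10.88 in the BHBL pools. It was lowest in BHBH pool 4 like the markers but highest in BHBL pool 2, with an r of 0.35.

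T and natural killer lymphocyte markers were low with the macrophage genes in pair 4. Of 21 measured, 12 were at least 2-fold lower in pair 4, against 5.07% of all features, and 4 had the sign arrangement, against 7.14%. Their mean ratios were lower in BHBH for 19 and higher for 2, while 48.2% of all features had a higher mean. The list's median centred level was 0.05, -0.08, 0.05 and -0.60 in the BHBH pools, against -0.09, -0.002, -0.23 and 0.79 in the BHBL pools. CD3E, a chain of the T cell receptor complex, had log2 levels of 11.52, 11.42, 11.83 and 10.52 in the BHBH pools, against 11.15, 11.97, 11.55 and 12.87 in the BHBL pools. BHBH pool 4 was the lowest and BHBL pool 4 the highest, while the other 6 lay between 11.15 and 11.97. The part of lymphocytes in the macrophage values was not tested.

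The sign arrangement was found in 1 of 8 measured B lymphocyte markers and in 1 of 14 neutrophil markers, against 7.14% of all features, so these counts set neither list apart from the array. MS4A1, the B cell antigen CD20, had pair ratios of 0.63, -3.23, -1.37 and 0.20. S100A8, a calcium-binding protein abundant in neutrophils and inflamed epithelia, had -0.87, -3.59, -4.70 and -1.01. Median centred levels of the neutrophil list stayed between -0.20 and 0.05 in the BHBH pools and between -0.17 and 0.24 in the BHBL pools. MS4A1 and S100A8, like PTPRC and CD3E, exceeded background in all 16 channels.

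The labelled cell type was checked against 18 granulosa markers, all of which were measured and above background in at least 12 of 16 channels. Granulosa markers had the sign arrangement in 0 of 18 genes, against 7.14% of all features, so this count does not set the list apart. Their medians over the pairs were -0.47, 0.34, 0.06 and 0.61. FSHR, the receptor for follicle-stimulating hormone, had log2 levels of 8.82, 10.44, 10.41 and 11.90 in the BHBH pools, against 10.37, 9.18, 10.85 and 9.91 in the BHBL pools. It was highest in BHBH pool 4, the pool in which the macrophage markers were lowest, and its r with them was -0.50. CYP19A1, the aromatase that makes oestradiol, had pair ratios of -1.35, 0.63, -1.41 and 1.27. Its 2 further probes had -0.13, 0.54, 0.10 and 0.77, and 0.01, 0.82, 0.12 and 0.89, so the probes differed in sign in pair 3. In contrast, STAR had pair ratios of 3.10, -0.28, -0.02 and -1.36, and GATM had 1.78, -2.23, 0.95 and -2.15. Their r with the markers was 0.51 and 0.32, against -0.54 for ESR2 and -0.50 for FOXL2. Over the 18 genes r ran from -0.81 to 0.51 with a median of -0.37. Lowest in BHBH pool 4 were 2 of 18, against 14.9% of all features. The list's median centred level was -0.25, 0.14, 0.20 and 0.16 in the BHBH pools, against 0.29, -0.14, 0.07 and -0.48 in the BHBL pools. Whether the share of granulosa RNA sets the macrophage values was not tested.

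Lists of epithelial, stromal and endothelial markers came last. Epithelial markers had medians of -1.69, -3.05, -3.27 and -1.87, lower in BHBH in every pair. The sign arrangement held for 0 of 10 genes, against 7.14% of all features. EPCAM, an adhesion protein of epithelia, had -0.98, -5.20, -3.97 and -1.91, while its further probe stayed between -0.23 and 0.16. None of the 10 passed the adjusted threshold over 4 pairs, and 7 had an unadjusted p under 0.05. With all 8 arrays and the pool pair as a block, 6 of the 10 were called lower in BHBH, among 120 called of all 32472 features. That less strict fit counts dye-swapped arrays of the same pools partly as separate replicates. Theca and stroma markers had the arrangement in 0 of 14 genes and endothelial markers in 2 of 11, against 7.14% of all features. In pair 4, however, 6 of the 14 theca and stroma genes were at least 2-fold lower in BHBH, against 5.07% of all features, and 5 were at least 4-fold lower, against 1.36%. COL1A2 and COL3A1, chains of fibrillar collagens, had pair ratios of 3.76, -0.65, -2.93 and -5.03, and of 3.83, -1.53, -3.52 and -4.84. These genes were thus low in BHBH in pair 4 and high in pair 1 like the markers, and low in pairs 2 and 3 unlike them. The part of stromal cells in the macrophage values was not tested. LUM, a collagen-binding proteoglycan of stroma, had -1.02, -1.24, -2.77 and -0.24. PECAM1 did not pass the filter on dim probes.

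**Figure D4:**
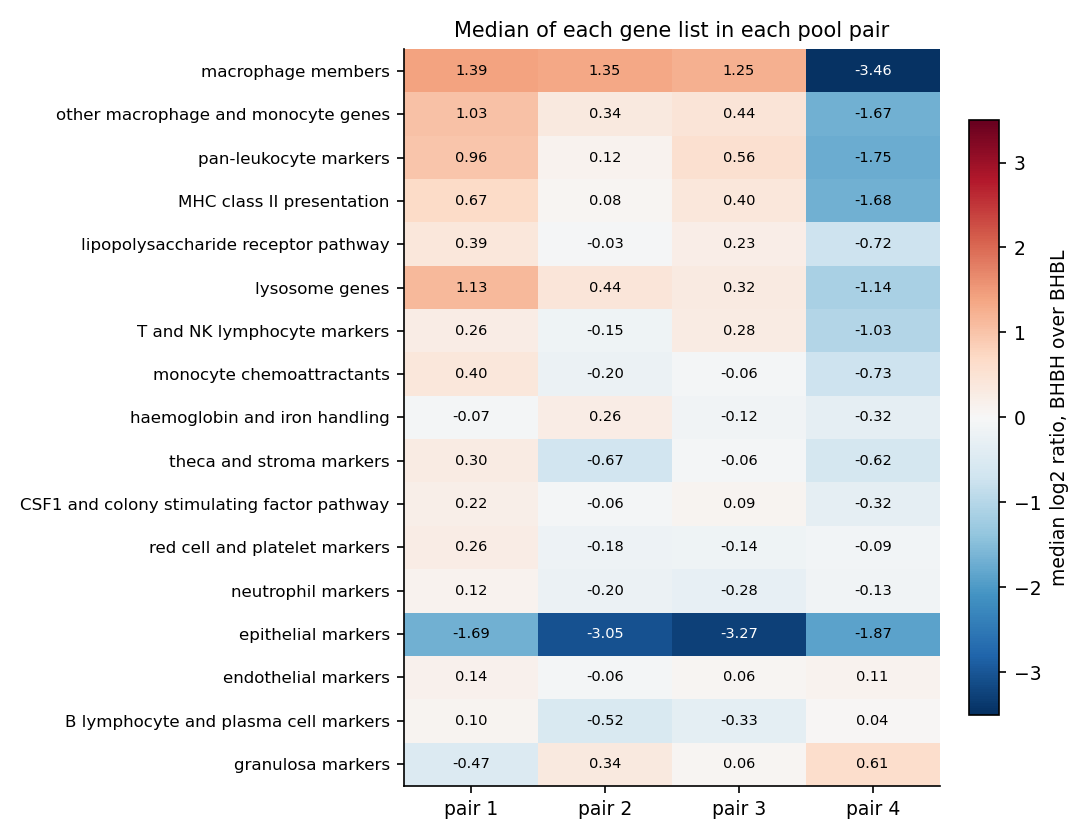
Median log2 ratio of BHBH over BHBL (colour scale and printed values) for each gene list (rows) in the 4 pool pairs (columns). The 5 markers and the other macrophage genes are above 0 in pairs 1 to 3 and below 0 in pair 4, the pan-leukocyte, MHC class II and lysosome lists have the same signs, epithelial markers are below 0 in every pair, and granulosa markers are highest in pair 4 at 0.61.

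The genes most like the markers were then sought over the whole array. Likeness was Pearson's r over the 8 pools with the mean of the 5 centred marker profiles, among 2546 named genes with clear signal and an SD over pools of at least 0.5. An r of at least 0.9 was reached by 127 of them, and the median was 0.10. The 10 highest were CFP, FCGR1A, SLC9A9, CTSC, LOC512286, CCR1, HNMT, NEK6, FCGRT and ENPP2, with r between 0.98 and 0.99. Because the markers' profile was used to find them, their ratios are a description.

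Among these, CFP encodes properdin, which stabilises the complement convertase and is made by myeloid cells, and it had pair ratios of 1.17, 0.96, 1.11 and -3.06. CTSC, the protease that activates granule serine proteases, had 1.90, 0.97, 1.16 and -2.95. CCR1, a chemokine receptor of monocytes, had 1.07, 0.96, 0.80 and -1.52. FCGRT encodes the neonatal Fc receptor, which returns IgG to the circulation, and it had 0.98, 1.04, 1.21 and -3.07. Another FCGRT probe stayed between -0.09 and 0.24. Of the further probes of NEK6, 1 had 0.70, 0.38, 0.38 and -1.33, the signs of the markers with smaller ratios, and the other stayed between -0.07 and 0.24. ENPP2, the secreted enzyme that makes lysophosphatidic acid, had 1.502, 1.81, 1.71 and -3.35, and HNMT, which inactivates histamine, had 1.83, 1.44, 1.02 and -3.48. Another HNMT probe had 0.56, 0.77, 0.05 and -1.19. By the probe that represents each, all 10 genes were higher in BHBH in pairs 1 to 3 and lower in pair 4.

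At the other end TARSL2, a threonyl-tRNA synthetase, had an r of -0.91, with pair ratios of -1.03, -0.57, -0.45 and 1.2004. It was followed by CHST8, a sulfotransferase that acts on glycoprotein hormones, at -0.85, EDEM3 at -0.78, GAT at -0.77 and SH3D19 at -0.76. Of these 5, TARSL2 was lower in BHBH in pairs 1 to 3 and higher in pair 4, the full opposite of the markers, an arrangement that 6.08% of all features had. EDEM3 had pair ratios of -0.94, 0.14, -0.80 and 1.02. Its further probes had smaller ones, -0.01, 0.13, -0.12 and 0.21, and 0.37, 0.02, 0.23 and 0.80.

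Each marker had its own nearest genes. For CD163 these were TNFAIP8L2, NLRC4 and BTK, with r of 0.98, 0.98 and 0.97, and BTK is a kinase of B and myeloid cells. For CD14 they were RGS10, LCP1 and FLI1, with r of 0.99, 0.99 and 0.98, and LCP1 encodes the actin-bundling plastin of leukocytes. CD68 was followed most closely by MSR1, SLC9A9 and RARRES1, at 0.99, 0.98 and 0.98. CSF1R had SLC9A9, NLRX1 and CCR1, at 0.99, 0.98 and 0.98. AIF1 had RNASE6, LCP2 and GLRX, at 0.99, 0.97 and 0.97. SLC9A9, an endosomal sodium and proton exchanger, was the only gene nearest to more than 1 marker.

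**Figure D5:**
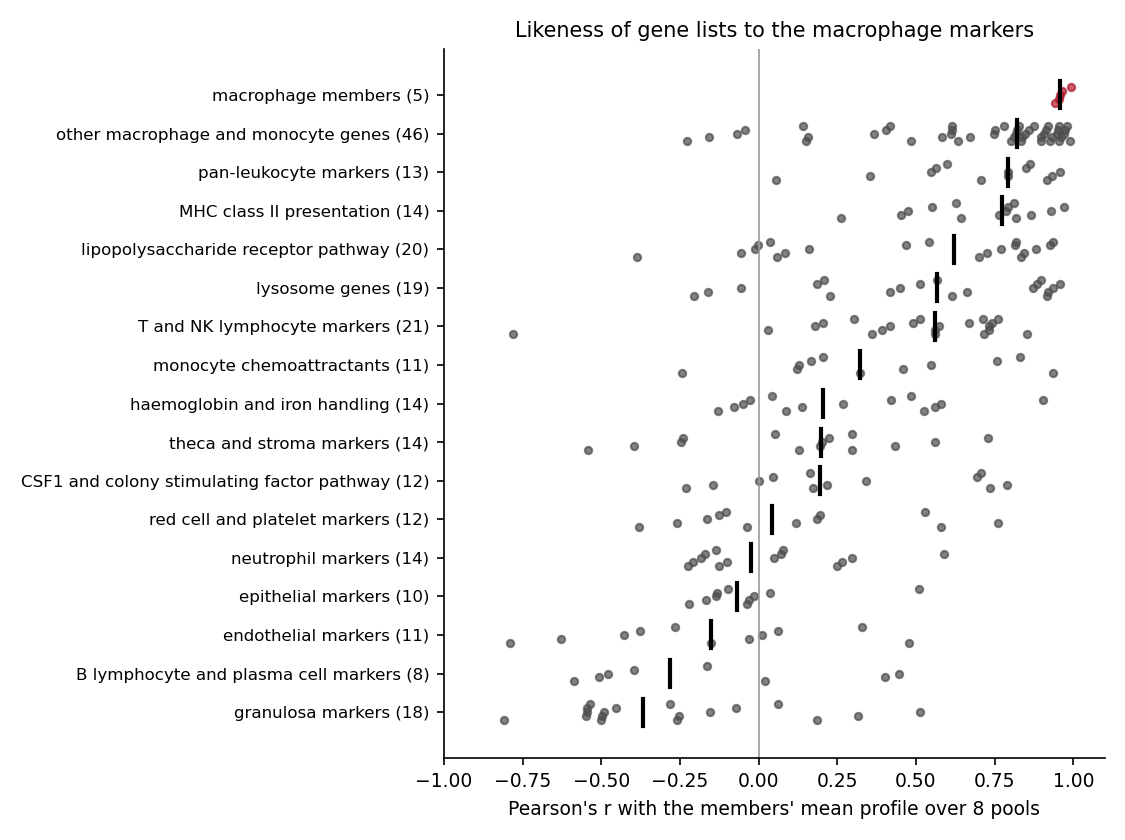
Pearson's r over the 8 pools between each measured gene of a list and the mean profile of the 5 markers (horizontal axis, no unit), with lists as rows, their number of measured genes in brackets and a black bar at the list's median. The markers themselves, which make up the profile, lie between 0.94 and 0.99, other macrophage genes have a median of 0.82, and granulosa markers have a median of -0.37.

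PDK4, a mitochondrial kinase induced in fasting, also had the signs of the markers, with pair ratios of 0.80, 1.44, 1.57 and -4.69. Over the 8 pools its r with them was 0.71. Its further 2 probes had 0.39, 0.28, -0.07 and -1.90, and 0.86, 1.24, 1.09 and -2.28.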

How the data were processed

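Deposited scanner files gave the authors' intensity per spot, foreground and local background at 635 nm (Cy5) and 532 nm (Cy3), per the file headers. The series-wide set of values deposited by the authors consists of log2 ratios, and the submitters' processing notes name limma without a version or settings. They ran as BHBH over BHBL when set against the scanner intensities (r 0.941 to 0.96 across probes, medians per array -0.0142 to 0.0396) and served only as an alternative. Precision is limited by the number of arrays and pools.

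BHBH was in Cy5 on slide 289 and in Cy3 on slide 288, so dye and slide coincide. The labels do not name pools: arrays with the same area number on both slides were taken as a pool pair, and the title reading area 1.2 as area 1. Log ratios of same-numbered arrays correlated at 0.843 to 0.892 across features, and 16 of 16 channels matched their own area best.

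Median intensities were processed in R 4.3.3 with limma 3.58.1 (package data.table (version 1.17.8), jsonlite 2.0.0; figures with matplotlib 3.10.9): normexp with offset 50, loess within arrays with controls at weight 0, each ratio oriented from the labels' dyes as BHBH over BHBL, and the 2 arrays of a pair averaged. Pool levels came from loess followed by Aquantile, averaged over both dyes. A technical SD is that between the 2 arrays of a pool after removal of the mean dye difference. Of 43794 probes, 37909 passed the filter, a signal over the mean plus 2 SD of 153 negative controls on 4 or more of the 8 arrays in either channel. Between 66.8 and 81.4% of probes were above that level in a channel. A gene was represented by its brightest kept probe. Of all probes 21790 carried 1 symbol, 22004 none and 0 several, from the platform annotation, and older list symbols were matched through RefSeq aliases that belong to 1 gene only.

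The 4 pair ratios were tested against 0 with lmFit and eBayes, adjusted by Benjamini-Hochberg over all 32472 features. The procedure was tested on simulated data. The markers and lists were chosen with earlier results of these data known. Genes were named by the following rules, and not all genes that met them are given. The rules took every marker probe and, in each list, the 2 genes with the smallest p and the 2 with the largest SD over pairs. They also took the 10 highest and 5 lowest in likeness (above background in at least 12 of 16 channels, SD of at least 0.5). The 3 genes nearest each marker and defining genes of each cell type completed them. IL34, FTH1, FCGR2, FCER1G, FCGR3, VSIG4, STAB1, TREM2, MERTK, IRF8, LYZ, CX3CR1 and CD33 were named outside these rules. MRC1 and sequences were not analysed here.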

Additional observations from a re-analysis of the deposited data

Results flagged for a closer look

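In 22 of the 127 groups of 4 values examined, 1 value stood apart from the other 3. About 1 group in 20 would be expected to by chance if genes had not been chosen by these values. The markers were chosen by their ratios and many other genes by likeness to them, so for these the distance is a description and no test, and the count is not set against chance. In 20 of them the far value was the ratio of pair 4, on the log2 scale BHBH over BHBL. Among the markers these were CD68 at -3.23, with the other pairs between 1.22 and 1.59, and CSF1R at -2.14, with the others between 1.35 and 1.55. Among other macrophage genes they were GPNMB at -4.66, FCGR1A at -4.26, MSR1 at -2.44 and CCR1 at -1.52, and among lysosomal genes LGMN at -3.74, a ratio that is not exact because 4 of its 16 channels were saturated. Genes named for likeness gave CFP at -3.06, SLC9A9 at -2.68, LOC512286 at -3.10, HNMT at -3.48, FCGRT at -3.07, ENPP2 at -3.35, TNFAIP8L2 at -1.76, NLRC4 at -1.51, BTK at -1.62, RARRES1 at -4.03, NLRX1 at -1.62 and RNASE6 at -2.74. In pair 4 further probes gave -1.19 for HNMT, -0.09 for FCGRT and -1.13 for CCR1. PDK4 stood at -4.69 in pair 4, with the others between 0.80 and 1.57, and its further probes gave -1.90 and -2.28 there. LBP was far in pair 2, at -1.85 with the others between -0.39 and -0.25, and its further probe gave -0.12 there. The level of CD14 in BHBH pool 4, 7.58, was far from the other BHBH pools, between 10.94 and 11.54. Its raw Cy5 intensity in that pool was 194 over a local background of 40, so the size of this distance is less exact.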

How the results depend on the processing

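Fitting all 8 arrays with the area number as a replicate block (consensus correlation 0.393) called 120 features at an adjusted p under 0.05, and without a replicate block 215, against 0 over 4 pool pairs. Both 8-array fits count dye-swapped arrays of the same pools as separate replicates, in part or fully, so they are less strict. None of the 120 was among the 46 other macrophage genes, and 6 were epithelial markers, lower in BHBH. Of the 10 genes most like the markers, 2 stayed among the first 10 with Spearman's rho, 4 without pool pair 4 and 2 without pool pair 1. The number of other macrophage genes in the sign arrangement was 23, and between 22 and 25 under the other processing settings run. As alternatives chosen after seeing the data, it was 23 with pair 4 left out of the arrangement and 25 with pair 1 left out. Leaving a pair out can only keep or raise this count, so these 2 values are no check of it. The share of all features was then 14.2% and 12%, against 7.14% with all 4 pairs. The pair 4 ratio stayed below 0 for the 5 markers under all 8 settings run for it, from -4.88 for CD163 to -1.70 for CSF1R. Among these settings, the mean of all kept probes and no probe filter could not change a marker with 1 kept probe. With slide 289 alone AIF1 was -0.17 and -0.03 in pairs 2 and 3. Mean ratios of the markers changed sign for CD163, CD14, CD68 and AIF1 when single pairs were left out, and for CD163 also with median centring (-0.0028) and slide 288 alone (-0.013). At an unadjusted p under 0.05 the count of 1664 features became 3999 with slide 289 alone, 6402 with slide 288 alone, 3359 without a block, 2726 without replicate 1 and 927 without replicate 3. The median of endothelial markers was -0.0979 with slide 289 alone. The cause of these shifts was not tested. Limits are 4 pools a group, pools that carry no name in the labels and 1 probe for each marker.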
